A study of Mus musculus with 34 samples.

Results

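The core spliceosome genes described here are those whose symbol begins with Snrp, Sf3a, Sf3b, U2af, Prpf or Lsm and whose mean FPKM over the 6 libraries was at least 0.5, 50 of the 22040 genes in the table. FPKM counts the sequenced fragments of a gene relative to the length of its exons and to a size set for each library. RNA was measured in limb buds of E11.5 mouse embryos, in 3 WT and 3 CKO libraries. In CKO embryos both *Hnrnpk* alleles are floxed and recombined by *Prrx1-Cre*, a transgene driven in the limb mesenchyme, and the labels name the WT libraries Hnrnpk WT with no further allele. Limb buds also hold ectoderm, vessels and blood, in which this Cre is not expected to act, and the sex of the embryos was not determined. hnRNPK, the protein lost, binds RNA and single-stranded DNA and takes part in transcription, splicing and mRNA stability. Of 52 rows with such a symbol, 2 lay below the mean of 0.5, *Lsmem1* at 0.0207 and a *U2af1l4* row at 0.147. The row nearest above it was a second identifier of *U2af1l4*, at 0.548, which the annotation gives as a transcript that reads through into *Igflr1*.

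The spliceosome removes introns from pre-mRNA. Its U1, U2, U4 and U5 snRNPs each carry a ring of Sm proteins on their snRNA, and the U6 snRNA carries a ring of Lsm proteins. U1 recognises the 5′ splice site, and the U2AF dimer and the U2 snRNP, with its SF3a and SF3b complexes, recognise the 3′ splice site and the branch point. The U4/U6.U5 tri-snRNP then joins, and *Prpf8* holds the catalytic centre. A few Lsm proteins work elsewhere, in histone mRNA processing, in mRNA decapping or in translational repression.

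The gene *Hnrnpk* itself was at 193, 194.6 and 185 FPKM in WT and at 127, 142 and 135 FPKM in CKO, with no overlap between the groups. This is a log2 fold change of -0.50 ± 0.13 (SE, n = 3 per group), with an adjusted p of 0.33 by limma. Globin mRNA made up 13.7% to 20.6% of the summed FPKM in WT and 11.7% to 32.4% in CKO. Higher and lower means in CKO are those of log2(FPKM + 0.1), here and below. All 10 red blood cell markers were higher in CKO, and their summed FPKM ran from 37967 to 64210 in WT and from 30999 to 143320 in CKO. Of the 10 limb mesenchyme markers, 9 were lower in CKO, with a summed FPKM of 336 to 348 in WT and 283 to 323 in CKO. All 8 endothelial markers were lower in CKO, and 8 of 10 ectoderm, 8 of 10 macrophage, 5 of 5 tested muscle precursor and 4 of 4 tested Schwann precursor markers were higher. No marker was at 0 in any library, and the part of these cell types in the results below was not tested. In bulk tissue, fewer cells of a type and less RNA per cell cannot be told apart.

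In CKO limb buds 37 of the 50 spliceosome genes had a higher mean and 13 a lower one, with a median log2 fold change of 0.12, against a share above 0 of 50.9% and a median of 0.00 over all 12305 genes tested. The median difference of CKO minus WT over the 50 was -0.01 between the libraries numbered 1, with 22 genes higher in CKO, 0.10 between those numbered 2, with 30 higher, and 0.22 between those numbered 3, with 41 higher. The median level of the 50 genes had an SD of 0.12 between libraries of a group on the log2 scale, as large as the median difference. The changes were small: the lowest was -0.59, for *Lsm14b*, and the highest 0.44, for *Prpf8*. None of the 50 passed an adjusted p of 0.05 by limma, where 0.065% of all genes did, and none changed more than 2-fold in either direction at an unadjusted p under 0.05, where 0.666% did. At an unadjusted p under 0.05, *Prpf8* was higher in CKO, against 2.84% of all genes, and *Lsm14b* and *U2af1* were lower, against 5.46%. With the replicate number as a block, 6 spliceosome genes were higher at an unadjusted p under 0.05 (background 8.14%) and 3 lower (background 10.2%). With the block, *Lsm14b* alone passed an adjusted p of 0.05 (0.028), where 1.68% of all genes were lower and 1.13% higher past it. The rest had a smallest adjusted p of 0.064 with the block, for *Prpf8*. *Lsm14b* is one of the Lsm proteins that work outside the spliceosome. Without those Lsm proteins and *U2af1l4*, 43 genes are left, of which 35 were higher and 8 lower, with a median log2 fold change of 0.15. None of the 43 passed with the block.

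The median of 0.12 depended on how libraries were scaled. When the FPKM were rescaled without the globin genes, the median of all genes shifted to -0.10, and 28 spliceosome genes were higher and 22 lower. Relative to the median of all genes, the spliceosome median was then 0.11, as it was at 0.12 with the FPKM as deposited, and 37 of 50 lay above the median of all genes in both. With quantile normalization 33 were higher and 17 lower. The spliceosome median then lay 0.074 above the median of all genes, and 32 of 50 lay above that median.

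The CKO and WT values of 8 genes did not overlap. *Prpf8*, *Sf3a3*, *Sf3b3* and *Lsm14a* were higher in all CKO libraries, 8% of the 50 against a background of 5.63%. *Lsm14b*, *Lsm11*, *U2af1* and *Prpf3* were lower in all, also 8%, against a background of 8.86%. With median-ratio scaling the split was 7 higher and 2 lower, where 14.3% of all genes did not overlap in either direction. An exact two-sided permutation test of 3 against 3 libraries gives p = 0.1 for each of the 8, which is the smallest it can give.

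**Figure D1:**
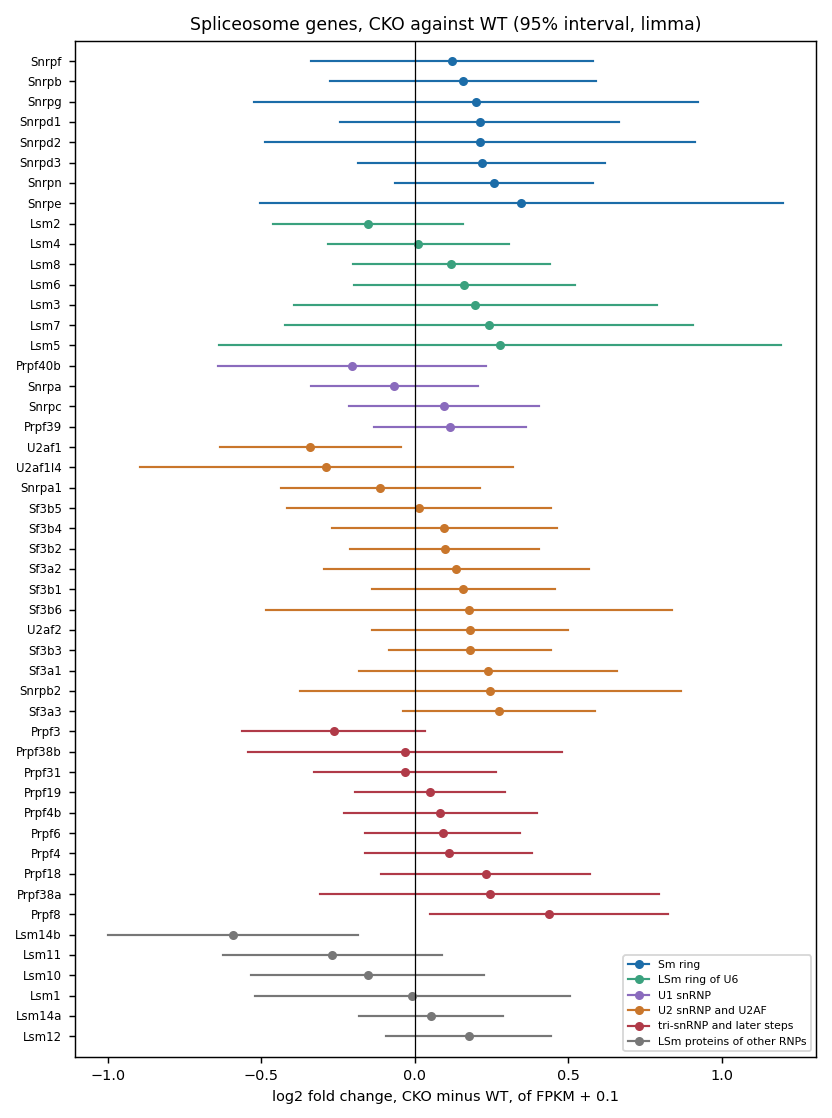
Log2 fold change between CKO and WT (x axis) of 49 of the 50 spliceosome genes, grouped by colour into the snRNP or ring they belong to; points are limma estimates and lines their 95% intervals. All 8 Sm ring genes lie right of 0, and the intervals of *Lsm14b* and *U2af1* on the left and *Prpf8* on the right do not reach 0.

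Because the results turn on *Lsm14b*, *U2af1* and *Prpf8*, the 200 bases upstream of their RefSeq starts on GRCm38.p6 are shown, 5′ to 3′ on the gene's strand. They lie at chr2:180024787-180024986 on the plus strand for *Lsm14b*, at chr17:31658765-31658964 on the minus strand for *U2af1*, for which the outer of 2 listed starts was taken, and at chr11:75486577-75486776 on the plus strand for *Prpf8*. Capitals mark matches on either strand to 7 short motifs: the CCAAT box (CCAAT), the GC box (GGGCGG), the TATA box (TATAAA), an ETS site (CCGGAAG), the core of a cAMP response element (TGACGT), the core of an NRF1 site (TGCGCA) and a CT element of the kind hnRNPK binds (CCCTCCC).
Lsm14b: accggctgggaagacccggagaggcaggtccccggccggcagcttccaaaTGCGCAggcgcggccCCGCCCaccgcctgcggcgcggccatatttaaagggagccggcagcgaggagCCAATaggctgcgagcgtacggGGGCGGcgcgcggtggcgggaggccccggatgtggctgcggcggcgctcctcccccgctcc
U2af1: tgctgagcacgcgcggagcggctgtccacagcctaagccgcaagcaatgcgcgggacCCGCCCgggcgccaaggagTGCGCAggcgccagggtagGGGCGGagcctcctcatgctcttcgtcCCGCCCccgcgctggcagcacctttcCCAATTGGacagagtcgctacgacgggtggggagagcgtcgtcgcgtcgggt
Prpf8: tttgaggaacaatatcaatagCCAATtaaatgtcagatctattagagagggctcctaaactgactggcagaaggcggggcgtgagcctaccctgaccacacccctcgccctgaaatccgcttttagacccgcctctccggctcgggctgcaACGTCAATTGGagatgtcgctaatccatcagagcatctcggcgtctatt
The *Lsm14b* window held 1 CCAAT box, 83 to 79 bases upstream of the start, 2 GC boxes and 1 NRF1 core, and 75.5% of its bases were G or C. The *U2af1* window, with 70.5% G or C, held 3 GC boxes, 1 NRF1 core and 2 CCAAT matches that overlap on opposite strands. The GENCODE vM21 annotation puts the 5′ end of *U2af1* at 31658892, inside this window. The bases nearer the RefSeq start thus lie within the gene as annotated there. The *Prpf8* window was 52% G or C and held 2 CCAAT boxes, the nearer of which abuts a cAMP response core, and no GC box. None of the 3 windows held a TATA box, an ETS site or a CT element in these letters.

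RefSeq windows of 300 bases, from 250 before to 50 after a start, were at hand for 40 of the 50 genes by symbol, 51 windows in all. An NRF1 core was found in 39.2% of these windows, against 7.79% of the 32544 windows of all genes, and an ETS site in 31.4% against 8.91%. A GC box was in 54.9% against 35.9%, a cAMP response core in 19.6% against 7.55%, and a CCAAT box in 43.1% against 37.4%. The TATA box was in 5.88% against 13.6%, and the CT element in 11.8% against 22.1%. The windows of all genes were not limited to the genes tested, so the shares among expressed genes are not given. These are matches of letters, and binding at them was not measured here.

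The Sm ring is the shared core of the U1, U2, U4 and U5 snRNPs, made of the SmB, D1, D2, D3, E, F and G proteins. Its 8 genes, *Snrpb*, *Snrpd1*, *Snrpd2*, *Snrpd3*, *Snrpe*, *Snrpf*, *Snrpg* and the imprinted SmB paralog *Snrpn*, all had a higher mean in CKO, with log2 fold changes from 0.12 to 0.35 and a median of 0.21. None passed the test, and none had groups that did not overlap. All 8 stayed above 0 with median-ratio scaling and with the globin genes left out of the scaling, and 7 of 8 did with quantile normalization. *Snrpd1* had the highest level of the ring per length, at 174, 211 and 189 FPKM in WT and 169, 254 and 249.2 FPKM in CKO. *Snrpn* had the lowest, at 7.37, 6.17 and 6.52 FPKM in WT and 7.22, 7.69 and 9.23 FPKM in CKO. Its log2 fold change was 0.26 ± 0.14 (SE, adjusted p = 0.69). It shares exon bases with *Snurf* and another annotated transcript, at most 589 with either. Its coding sequence is also close to that of *Snrpb*, so reads may be split between these genes.

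*Snrpe*, which encodes SmE, had the largest difference of the ring. In the order of replicate numbers, its FPKM were 45.5, 90.5 and 74.6 in WT and 50.4, 117 and 108 in CKO. Both libraries numbered 1 lay below all of the other 4, so the groups overlapped although each CKO library was above the WT library of its number, by 0.15, 0.37 and 0.53 on the log2 scale. The log2 fold change was 0.35 ± 0.37 (SE, adjusted p = 0.86), and with the replicate block 0.35 ± 0.12 (SE, adjusted p = 0.15). Leaving out WT replicate 1 gave 0.063, leaving out CKO replicate 1 gave 0.73, and leaving out each of the other libraries gave values in between.

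The ring as a whole followed the same pattern. Its summed FPKM were 523, 719 and 600 in WT and 516, 820 and 815 in CKO, in the order of the replicate numbers. In 7 of 8 genes both libraries numbered 1 lay below all 4 others, and the median gap between number 1 and the mean of numbers 2 and 3 was -0.27 in WT and -0.55 in CKO on the log2 scale. Between the libraries numbered 1, the median difference of CKO minus WT over the 8 genes was -0.04 and 2 of 8 were higher in CKO. Between the libraries numbered 2 it was 0.25 with 7 of 8 higher, and between those numbered 3 it was 0.46 with 8 of 8 higher. The gap between replicate numbers was thus larger than the difference between genotypes. The 10 proliferation markers, all with higher means in CKO, had summed FPKM of 771, 801 and 783 in WT and 742, 1058 and 917 in CKO, with the highest levels in the same libraries as the ring. Their part in the ring's values was not tested.

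**Figure D2:**
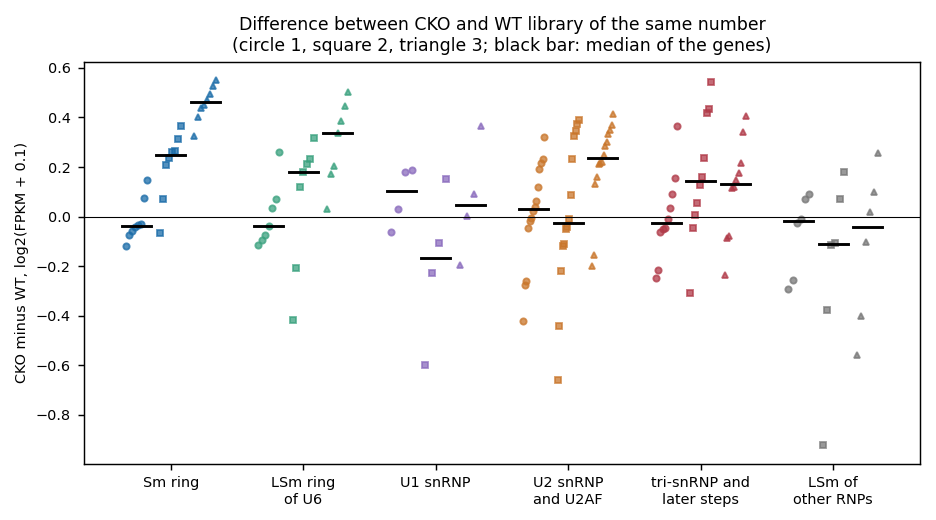
Difference of CKO minus WT in log2(FPKM + 0.1) (y axis) between libraries of the same replicate number, for 49 of the 50 genes by group (x axis); black bars are medians over genes. The Sm ring medians run from -0.04 at number 1 to 0.25 and 0.46 at numbers 2 and 3, while the U1 and U2 groups scatter around 0 at numbers 1 and 2.

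The LSm ring of U6, *Lsm2* to *Lsm8*, binds the 3′ end of U6 snRNA. In CKO 6 of its 7 genes had a higher mean, with a median log2 fold change of 0.16 and a range from -0.15 for *Lsm2* to 0.28 for *Lsm5*, while 5 were higher with quantile normalization or with the globin genes left out of the scaling. None passed the test, and all 7 pairs of groups overlapped. Their order by FPKM runs from *Lsm2*, at 13.1, 13.5 and 13.1 in WT and 12.5, 10.1 and 13.4 in CKO, to *Lsm4*, at 50.6, 57.9 and 54.0 in WT and 53.1, 50.2 and 60.8 in CKO. This order depends on the length used. With the length of each gene's principal transcript in place of all its exons, *Lsm6* had the lowest mean, 23.1, and *Lsm7* the highest, 88.5. For *Lsm4* the 95% interval of the log2 fold change was -0.28 to 0.31, and its sign turned in both of these scalings.

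*Lsm5* varied most between replicate numbers. Its FPKM were 17.4, 38.8 and 36.3 in WT and 20.9, 45.6 and 45.9 in CKO, so that both libraries numbered 1 were far below the rest. The gap between number 1 and the others was -1.11 in WT and -1.13 in CKO on the log2 scale, against a log2 fold change between genotypes of 0.28 ± 0.39 (SE, adjusted p = 0.90). Without WT replicate 1 the log2 fold change of *Lsm5* turned to -0.091. Within the numbers it was higher in CKO by 0.26, 0.23 and 0.34, and the replicate block gave 0.28 ± 0.10 (SE, adjusted p = 0.17). The ring's median difference was -0.04, 0.18 and 0.34 at numbers 1, 2 and 3.

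The gap of the libraries numbered 1 went with the length of the coding sequence, in these genes as in the whole table. Of the 17 spliceosome genes with at most 450 coding bases, 16 were lower in the libraries numbered 1, with a median gap of -0.39 on the log2 scale. Among the 961 tested genes of that class, 85.2% were lower and the median gap was -0.45. Between 1500 and 3000 coding bases the median gap was 0.10 in 11 spliceosome genes and 0.09 in 3770 genes, and above 3000 it was 0.17 in 4 and 0.33 in 1639. Over the 50 genes, Pearson's r between the gap and log2 coding length was 0.70, and over 12278 tested genes with a coding length 0.47, as a description of points that share the same 6 libraries. Short genes in general also leaned towards CKO at numbers 2 and 3: for those with at most 450 coding bases, the median difference was -0.06, 0.14 and 0.18 at numbers 1, 2 and 3 over all genes and -0.04, 0.21 and 0.39 over the 17 spliceosome genes. What the libraries numbered 1 share is not given by the labels, and the part of coding length in the values of the rings was not tested.

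**Figure D3:**
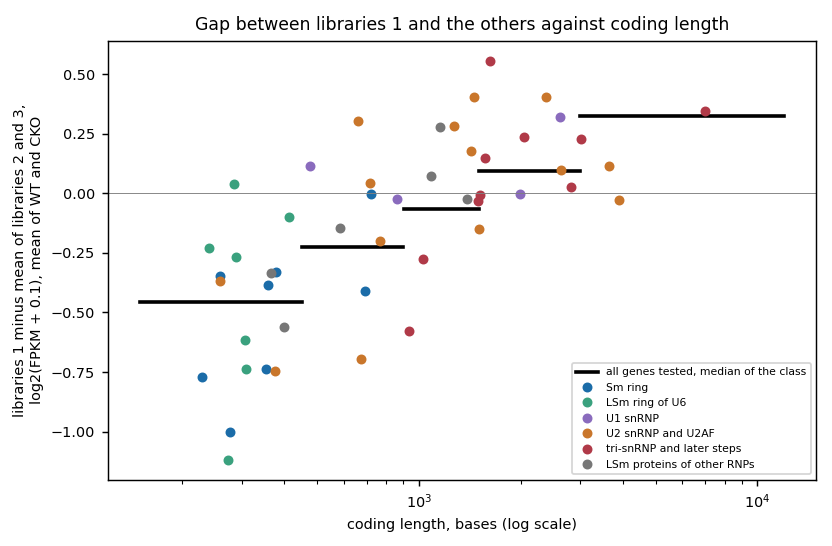
Gap between the libraries numbered 1 and the mean of those numbered 2 and 3, averaged over WT and CKO, in log2(FPKM + 0.1) (y axis), against coding length (log x axis), for 49 of the 50 genes (points) and as the median of all tested genes per length class (black bars). All short Sm and LSm genes but *Lsm2* lie below 0, the lowest at -1.12 for *Lsm5*, and genes over 1500 coding bases mostly lie above 0.

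The U1 group holds 5 genes, such as *Snrpa* and *Snrpc*, which encode the A and C proteins of U1, and *Prpf40b*, which encodes a factor associated with it. In CKO 3 of the 5 had a higher mean and 2 a lower one, and the lowest log2 fold change was -0.20, for *Prpf40b*. No pair of groups was free of overlap and none passed the test. *Snrpa*, the most abundant of the group, was at 51.1, 56.7 and 47.8 FPKM in WT and 48.9, 48.4 and 50.9 FPKM in CKO, a log2 fold change of -0.07 with a 95% interval of -0.34 to 0.20. *Prpf40b*, the least abundant, was at 11.2, 11.5 and 10.4 FPKM in WT and 12.7, 7.56 and 9.09 FPKM in CKO. It was higher in CKO at number 1 and lower at numbers 2 and 3, and with replicates 2 and 3 alone its log2 fold change was -0.40 (adjusted p = 0.038).

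The U2 group holds 14 of the 50 genes, and 11 of them had a higher mean in CKO, with a median log2 fold change of 0.15. With the globin genes left out of the scaling 8 were higher and 6 lower. The largest difference was a lower level of *U2af1*, the small U2AF subunit, which recognises the AG of the 3′ splice site. *U2af1* was at 143, 142 and 125 FPKM in WT and 107, 104 and 112 FPKM in CKO, and no CKO library reached the lowest WT library. Its mean changed by -21.1% in CKO, with a log2 fold change of -0.34 ± 0.13 (SE, 95% interval -0.63 to -0.05, adjusted p = 0.55, or 0.17 with the block). Its partner *U2af2*, which encodes the large subunit that binds the polypyrimidine tract, had 89.6, 84.0 and 77.8 FPKM in WT and 104, 83.4 and 97.9 FPKM in CKO, with overlapping groups and a log2 fold change of 0.18 ± 0.14 (SE, adjusted p = 0.81). The 2 subunits thus had estimates of opposite sign, and the difference between them was not tested. For the paralog *U2af1l4*, the row above the limit of 0.5 is the transcript that reads through into *Igflr1*. This row shares exon bases with *Igflr1* and with the other *U2af1l4* row, which lay below the limit at 0.147. It was at 0.635, 0.568 and 0.610 FPKM in WT and 0.632, 0.323 and 0.519 FPKM in CKO, on 20 to 44 reads per library. Its log2 fold change of -0.29 ± 0.26 (SE, adjusted p = 0.84) rests on these few reads.

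SF3a and SF3b bind U2 snRNA and the branch point. All 3 SF3a genes and all 6 SF3b genes had a higher mean in CKO than in WT, with log2 fold changes from 0.01 for *Sf3b5* to 0.27 for *Sf3a3*, while 8 of the 9 did with quantile normalization and 6 of the 9 with the globin genes left out of the scaling. *Sf3a3* was at 52.2, 53.4 and 49.0 FPKM in WT and 53.6, 69.2 and 65.3 FPKM in CKO, so the lowest CKO library exceeded the highest WT library by a small margin. Its log2 fold change was 0.27 ± 0.13 (SE, adjusted p = 0.65), and the 3 within-number differences were 0.04, 0.37 and 0.41. *Sf3b3* was at 44.5, 38.8 and 38.5 FPKM in WT and 46.5, 45.5 and 45.7 FPKM in CKO, again without overlap (log2 fold change 0.18 ± 0.11, SE, adjusted p = 0.74). *Sf3b2* had the highest FPKM of the group, at 140.3, 134 and 132 in WT and 152, 129.8 and 153 in CKO, and its groups overlapped. Its log2 fold change of 0.10 turned to -0.0080 with quantile normalization. *Sf3b1*, the subunit that clamps the branch point, had a log2 fold change of 0.16 with a 95% interval of -0.14 to 0.46.

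The tri-snRNP group, with the genes of later steps, holds 10 genes, of which 7 had a higher and 3 a lower mean in CKO. With the globin genes left out of the scaling the split was 4 higher and 6 lower. *Prpf8*, the scaffold of the catalytic centre and a U5 protein, was at 91.7, 65.4 and 73.8 FPKM in WT and 118, 95.2 and 97.8 FPKM in CKO. The lowest CKO library was above the highest WT library, and CKO was above WT at every number, by 0.36, 0.54 and 0.41 on the log2 scale. Its mean was 34.7% higher, with a log2 fold change of 0.44 ± 0.17 (SE, 95% interval 0.05 to 0.82, adjusted p = 0.55). The adjusted p was 0.064 with the block, 0.040 with voom on recovered reads and the block, and 0.018 with replicates 2 and 3 alone, with a range from 0.018 to 1 over all alternatives. The 11678 to 17401 reads behind each value leave little counting error.

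Other proteins of the U5 snRNP, named here after their values were seen, are set beside *Prpf8*. Of 8 such genes, 2 among the 50 and 6 outside the naming rule, 7 had a higher mean in CKO, against 50.9% of all genes tested. In 4 of the 8, *Prpf8* among them, every CKO library lay above all WT libraries, against 5.63% of all genes. As the 8 were chosen with their values known, these shares are no test of U5 genes. *Snrnp200*, the helicase that unwinds U4 from U6, was at 48.6, 41.4 and 42.4 FPKM in WT and 59.7, 61.7 and 55.6 FPKM in CKO, without overlap, and had a log2 fold change of 0.42 ± 0.12 (SE, adjusted p = 0.40, or 0.063 with the block). *Txnl4a*, the small U5 protein Dim1, was at 13.7, 17.6 and 14.9 FPKM in WT and 21.2, 33.0 and 29.2 FPKM in CKO, also without overlap. Its log2 fold change of 0.83 ± 0.19 (SE) had an adjusted p of 0.25, and of 0.0022 with the block. *Ddx23* was higher in all CKO libraries by a smaller amount, with a log2 fold change of 0.12 ± 0.10 (SE, adjusted p = 0.84). The GTPase *Eftud2* and the bridging factor *Prpf6* had overlapping groups, with log2 fold changes of 0.14 ± 0.12 and 0.09 ± 0.11 (SE, adjusted p = 0.84 and 0.88). *Cd2bp2* had the only lower mean of the 8, at -0.05.

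**Figure D4:**
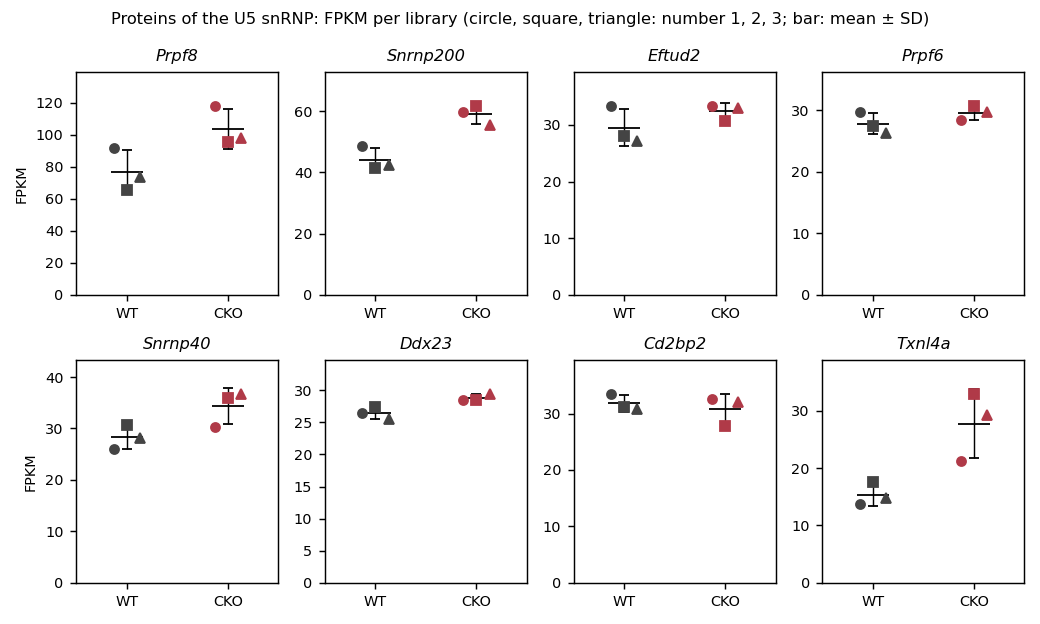
FPKM (y axis, from 0) of 8 U5 snRNP proteins in each WT and CKO library, with the mean and SD of 3 libraries. *Prpf8*, *Snrnp200*, *Ddx23* and *Txnl4a* do not overlap between the groups, while *Eftud2*, *Prpf6*, *Snrnp40* and *Cd2bp2* do. The 8 were named after their values were seen, and 5.63% of all genes tested were higher in CKO without overlap.

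*Prpf3*, a U4/U6 protein, had the lowest estimate of the tri-snRNP group. It was at 16.6, 14.5 and 14.0 FPKM in WT and 14.0, 11.6 and 11.9 FPKM in CKO, where the highest CKO library, at 13.996, lay just under the lowest WT library, at 14.036. CKO was below WT at every number, with log2 differences of -0.25, -0.31 and -0.24. The log2 fold change was -0.26 ± 0.13 (SE, adjusted p = 0.65, or 0.19 with the block). The other U4/U6 proteins of the group, *Prpf4* and *Prpf31*, had log2 fold changes of 0.11 ± 0.12 and -0.03 ± 0.13 (SE, adjusted p = 0.86 and 0.97). *Prpf18*, a factor of the second catalytic step with the lowest FPKM of the group, was at 9.55, 10.8 and 11.5 FPKM in WT and 10.6, 14.4 and 12.5 FPKM in CKO. With the length of the principal transcript in place of all exons, the mean of *Prpf4* was lower, at 16.2 against 17.4.

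The 6 Lsm proteins of other particles had their median at -0.08 on the log2 scale, 4 of 6 being lower in CKO, and the difference from the rings was not tested. With median-ratio scaling 3 were lower. *Lsm14b*, an RNA-binding protein of cytoplasmic granules that represses translation, had the largest change of all 50 genes. It was at 50.8, 49.1 and 48.6 FPKM in WT and 41.4, 25.8 and 33.0 FPKM in CKO, from 1430 to 3396 reads per library. The WT libraries lay within a narrow range and every CKO library lay below it, with log2 differences of -0.29, -0.92 and -0.56 at numbers 1, 2 and 3. The mean changed by -32.5% in CKO, a log2 fold change of -0.59 ± 0.18 (SE, 95% interval -0.998 to -0.185) with an adjusted p of 0.42. With the replicate block the SE was 0.13 and the adjusted p 0.028, and over all alternatives the log2 fold change ran from -0.76 to -0.42 and the adjusted p from 0.00021 to 1. The related *Lsm14a* was at 26.6, 27.3 and 27.3 FPKM in WT and 27.9, 28.7 and 27.6 FPKM in CKO, a log2 fold change of 0.05 ± 0.10 (SE, adjusted p = 0.92). Its groups did not overlap either, but by a small margin, and its log2 fold change turned to -0.053 with the globin genes left out of the scaling.

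*Lsm10* and *Lsm11* are part of the ring of the U7 snRNP, which cleaves histone pre-mRNA. *Lsm11*, the least abundant of these 6 genes, was at 2.78, 2.75 and 3.27 FPKM in WT and 2.72, 2.096 and 2.45 FPKM in CKO, from 259 to 460 reads per library. The groups did not overlap, with a log2 fold change of -0.27 ± 0.15 (SE, adjusted p = 0.71). *Lsm10* had a log2 fold change of -0.15 ± 0.16 (SE, adjusted p = 0.86) and overlapping groups. *Lsm1*, which replaces *Lsm8* in the cytoplasmic ring of mRNA decapping, had a log2 fold change of -0.01 with a 95% interval of -0.52 to 0.50.

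**Figure D5:**
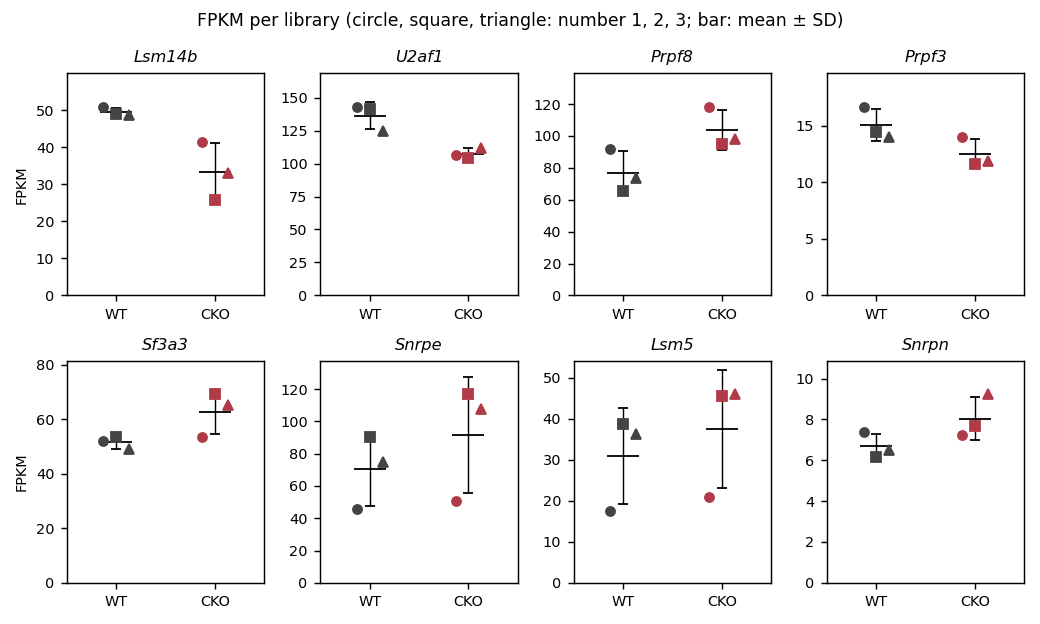
FPKM (y axis, from 0) of 8 spliceosome genes in each WT and CKO library, with the mean and SD of 3 libraries. *Lsm14b*, *U2af1* and *Prpf3* lie lower and *Prpf8* and *Sf3a3* higher in every CKO library, while for *Snrpe* and *Lsm5* the libraries numbered 1 lie below all others in both groups.

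Beyond the naming rule, 111 genes of 5 further lists were tested, and none passed an adjusted p of 0.05. Of 65 other snRNP, Prp19 and activated-spliceosome genes, 48 had a higher mean in CKO, with a median log2 fold change of 0.12, and *Txnl4a* alone passed with the block. Of 13 genes of the minor spliceosome 7 were higher, with a median of 0.00. Of 19 genes of snRNP assembly and import, such as the SMN complex that loads Sm rings, 18 were higher, with a median of 0.15 and log2 fold changes from -0.03 to 0.27. The U7 and histone processing list had 5 of 6 genes higher and a median of 0.09. Of 8 decapping partners of the cytoplasmic Lsm ring 6 were higher, and *Dcp1b*, a decapping activator, was lower. *Dcp1b* was at 2.38, 2.25 and 2.13 FPKM in WT and 1.49, 0.865 and 1.38 FPKM in CKO, without overlap, with a log2 fold change of -0.84 ± 0.22 (SE, adjusted p = 0.34, or 0.028 with the block).

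With replicates 2 and 3 alone, 6 of the 50 spliceosome genes were higher at an adjusted p under 0.05, against a background of 7.05%, and 2 were lower, against 8%. Those higher were *Prpf8*, *Snrpe*, *Snrpn*, *Sf3a3*, *Prpf38a* and *Lsm7*, and those lower were *Lsm14b* and *Prpf40b*. Each group then held 2 libraries.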

How the data were processed

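RNA-seq of E11.5 limb buds (3 WT and 3 CKO libraries) was used out of 34 samples; the other assays were not analysed here. The authors deposited FPKM for 22040 genes from stranded mRNA libraries. The submitters' processing notes name cutadapt 2.5, HISAT2 2.1.0, featureCounts 1.6.3 and mm10. How reads matching several genes were counted is not given in the sources used here.

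The deposited FPKM were filtered at a mean of 0.5, and log2(FPKM + 0.1) of 12305 genes was compared with limma 3.58.1 (trend, R 4.3.3), with Benjamini-Hochberg adjustment over all. Fold changes are on that scale. FPKM times merged exon lengths of GENCODE vM21 gave whole reads in all libraries (within 0.1 reads) for 92.7% of genes and 46 of the 50 spliceosome genes, with 17143034 to 24627737 reads per library, 144864 to 210979 of them on spliceosome genes. These recovered reads came to 0.947 to 1.11 of the library size that the FPKM imply, exceeding it in CKO replicates 2 and 3. That size is therefore not the plain total of these reads. Coding lengths and overlaps are from GENCODE vM21 and upstream sequences from RefSeq.

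Deviations from the group mean correlated at 0.64, 0.44 and 0.27 between libraries sharing replicate number 1, 2 and 3. The main fit took the libraries as unpaired, and the replicate block, which pairs them by number, was an alternative. The pairing rests mainly on number 1, since WT replicate 2 with CKO replicate 3 (0.49) and WT replicate 3 with CKO replicate 2 (0.31) correlated as much, and nothing says what a number stands for. The limma p-values set the difference between groups against the spread between these libraries, moderated over genes. The paper calls the libraries biological replicates and does not say how many embryos each holds.

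The spliceosome genes, lists and tests were chosen with earlier results of these data known. Genes given with all values are those past an adjusted p of 0.05 in either fit, the 5 largest rises and falls, those at an unadjusted p under 0.05, the highest and lowest FPKM of each group and those nearest the mean of 0.5. 1 gene of the U1 group is counted but not reported singly here or drawn. *Sf3b3*, *Lsm14a*, *U2af2* and U5 proteins were added after their values were seen. The fits were tested on simulated data. Alternatives were other pseudocounts, filters and scalings, eBayes without trend, an ordinary linear model, the replicate block, voom on recovered reads, replicates 2 and 3 alone and each library left out. Voom with the block, and a narrower gene set, were added after the data were seen.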

Additional observations from a re-analysis of the deposited data

How the results depend on the processing

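No spliceosome gene passed an adjusted p of 0.05 with other pseudocounts, filters or scalings or with any single library left out. With the replicate block 1 passed and 2 of the 111 genes of the other lists, against 2.81% of all genes. With voom and the block, 2 of 46 members and 2 of 96 genes of the other lists passed (5.14% of all genes). With replicates 2 and 3 alone, 8 of the 50 and 9 of the 111 passed (15% of all genes). The count at an unadjusted p under 0.05, 3 as reported, was 9 with the replicate block (18.4% of all genes), 11 with voom and the block (20.2%) and 21 with replicates 2 and 3 alone (29%), and ran from 1 to 17 with a library left out. It was 17 without CKO replicate 1 (19.6% of all genes), and 1 without WT replicate 2 (4.67%) or CKO replicate 3 (4.68%). Genes whose groups do not overlap, 8 as reported, numbered 5 with quantile normalization (14.1% of all genes), 5 with the globin genes left out (13.9%), 5 of the 43 genes left without the Lsm proteins of other particles and *U2af1l4* (14.5%), and 31 with replicates 2 and 3 alone, where 58.5% of all genes did not overlap. With a library left out they numbered 9 to 29, the highest without CKO replicate 1 (42% of all genes). Without WT replicate 1 they numbered 14 (31.5% of all genes). The median log2 fold change of 0.12 ran from 0.01 with the globin genes left out to 0.16 with replicates 2 and 3 alone and stayed above 0. Among the 20 spliceosome genes given with all values, the direction turned for *Lsm5* without WT replicate 1 (-0.091, against 0.65 without CKO replicate 1), *Lsm14a* with the globin genes left out (-0.053), *Sf3b2* with quantile normalization (-0.0080) and with the globin genes left out (-0.0092), and *Lsm4* in these scalings (-0.056 and -0.096), with replicates 2 and 3 alone (-0.018) and without WT replicate 1 (-0.037) or CKO replicate 3 (-0.067, against 0.071 without CKO replicate 2). The cause was not tested. Of the marker genes, the block brought *Tbx5* past the threshold, lower in CKO (adjusted p from 0.36 to 0.0073 by limma). Reads limit *U2af1l4* most, with 20 to 44 per library.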
